A study of Sus scrofa with 24 samples.

Results

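Ubiquitin is joined to proteins by a chain of enzymes and taken off again by deubiquitinases, and the genes of both steps were followed here in pig blood cells. The members were the probe sets whose symbol in the platform's table began with UBE2, UBE3, UCHL or OTUD, or was UBA or USP with a number, without USP9X, USP9Y and USP18. This gave 76 probe sets of 46 genes out of the 24123 probe sets and 6790 named genes on the array. Where a gene had several probe sets they are numbered in the order of their identifiers. They comprised 6 probe sets of 2 E1 genes, 40 of 24 E2 genes, 3 of 2 E3 genes and 27 of 18 deubiquitinase genes. Probe sets with a mean log2 intensity at or below 3.57 over all arrays were not tested. That left 72 member probe sets of 44 genes; UBE2QL1, USP30, 1 probe set of UBE2C and 1 of USP16 fell below it.

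RNA of peripheral blood mononuclear cells was measured on 24 Affymetrix arrays, 1 for each pig, and each of 6 diet groups held 2 females and 2 males. All diets were fed for 4 months. AD-GE pigs received an atherogenic diet with grape extract (1 g for 70 kg of body weight). AD-GE-RES pigs had a resveratrol-enriched grape extract in it (1 g, equivalent to 18 mg resveratrol) and AD-RES pigs resveratrol alone (18 mg). AD pigs received that diet unsupplemented, which held coconut oil at 10%, beef tallow at 5.5% and cholic acid at 1%. CT-GE-RES pigs received commercial chow with the resveratrol-enriched extract, and CT pigs received the chow alone. The cells were a mixture from a density gradient and were not sorted. Numbers 1 and 2 of each group are females and numbers 3 and 4 are males.

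In this system an E1 enzyme activates ubiquitin or a related modifier, an E2 enzyme carries it, and an E3 ligase helps to pass it to the substrate. Chains of ubiquitin can send a protein to the proteasome, and other chain types act in DNA repair, endocytosis and inflammatory signalling. Deubiquitinases trim or remove the chains, and in blood cells both steps take part in antigen receptor and cytokine signalling, in cell division and in the clearing of proteins from maturing red cells.

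Array medians of the deposited intensities lay between 38.6 and 41.0. Precision is bounded by the 4 arrays of each diet. T cell markers stood at a mean log2 intensity of 4.54 (CD4) to 11.4 (CD8A), and the erythroid marker ALAS2, the first enzyme of haem synthesis in red cells, stood at 11.3. The arrays also differed in the log2 ratio of 3′ to 5′ signal of 3 control transcripts, a measure of how far labelled RNA reached toward the 5′ end. This ratio ranged from 1.37 to 4.39. It averaged 2.69 in AD-GE-RES, 2.46 in AD-GE, 1.92 in AD-RES, 2.19 in AD, 2.20 in CT-GE-RES and 3.15 in CT, and CT 4 had the highest value.

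The diets did not move any member past the threshold. In limma's moderated test with Benjamini-Hochberg adjustment over 17999 probe sets, 0 of 72 members had an adjusted p under 0.05 in AD-GE, AD-GE-RES or AD-RES against AD, in AD against CT, or in CT-GE-RES against CT. Over all probe sets tested 0% passed in each of these comparisons. At an unadjusted p under 0.05 stood 0 of 72 members in AD-GE against AD (6.09% of all probe sets), 0 in AD-GE-RES against AD (2.4%), 1 in AD-RES against AD (4.45%), 4 in AD against CT (6.38%) and 8 in CT-GE-RES against CT (6.8%). By direction, 1 member was higher and 3 were lower in AD against CT, beside 3.25% and 3.13% of all probe sets. In CT-GE-RES against CT 7 were higher and 1 was lower, beside 3.87% and 2.93%. A moderated F test over the 5 comparisons called 0 members, with 5 at an unadjusted p under 0.05 where 9.16% of all probe sets stood there. The 95% intervals lay within a 2-fold difference either way for 69, 68, 68, 66 and 66 of the 72 members in the same order of comparisons. Whether fewer cells of a type or less RNA per cell underlies any difference in these mixed cells cannot be told apart.

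The middle of the member distribution was near 0 in the 4 comparisons that involve the atherogenic diet. Median member differences were 0.004 in AD-GE against AD, 0.03 in AD-GE-RES against AD, 0.01 in AD-RES against AD and 0.02 in AD against CT, on the log2 scale. In CT-GE-RES against CT the median was 0.11, with 52 of 72 members higher and 20 lower, beside a median of 0.01 over all probe sets, of which 52.3% were higher. Of the members there, 6 of 6 E1, 30 of 38 E2, 2 of 3 E3 and 14 of 25 deubiquitinase probe sets were higher. With the 3′/5′ ratio as a covariate 42 of 72 were higher and the median was 0.06, and without CT 4 the count was 48 and the median 0.07.

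**Figure D1:**
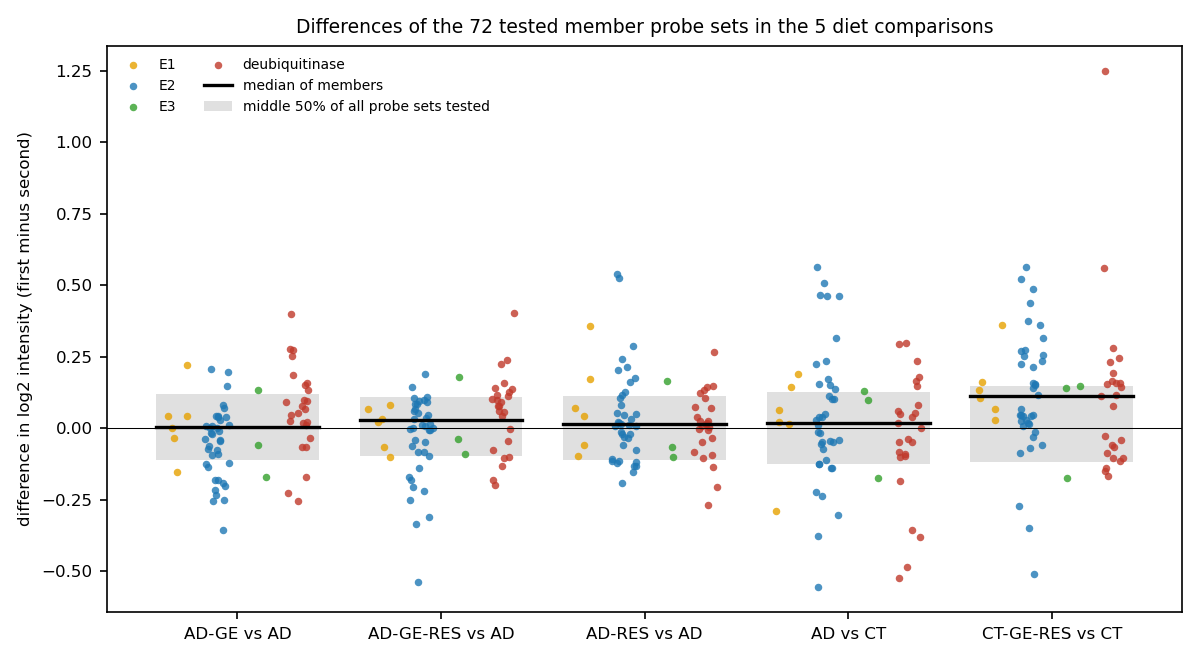
Differences in log2 intensity (first group minus second) of the 72 tested member probe sets in 5 comparisons, 1 point for each probe set, coloured by role. The black line is the median of the members and the grey band the middle 50% of all 17999 probe sets tested. The black line lies at 0.11 in CT-GE-RES vs CT and within 0.03 of 0 in the others, and the highest point is UCHL1 at 1.25.

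Of the E1 genes, UBA2 makes a subunit of the enzyme that activates the modifier SUMO, and UBA3 makes the catalytic subunit for NEDD8, which switches on cullin ligases. UBA2 measured 9.98, 9.83, 9.90 and 9.67 in CT-GE-RES pigs, against 9.60, 9.83, 9.61 and 9.71 in CT pigs, and the groups overlapped. All 6 E1 probe sets were higher in that comparison, by 0.03 to 0.36, and 0 of them had an unadjusted p under 0.05. Among the 5 UBA3 probe sets the range over the 5 comparisons ran from −0.29 (UBA3 probe set 1, AD against CT) to 0.36. The value of 0.36 occurred in UBA3 probe set 2 in AD-RES against AD (SE 0.25, limma adjusted p = 0.980) and in UBA3 probe set 5 in CT-GE-RES against CT (SE 0.19, limma adjusted p = 0.700). Both of these probe sets fell as the 3′/5′ ratio of the arrays rose, as given below.

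Among the E2 genes, UBE2T had the smallest p in CT-GE-RES against CT. UBE2T, which adds ubiquitin to the FANCD2 and FANCI proteins in the repair of DNA crosslinks, measured 6.67, 6.07, 5.97 and 6.03 in CT-GE-RES pigs, against 5.74, 5.68, 5.80 and 5.44 in CT pigs (probe set 2). The groups did not overlap, and CT-GE-RES 1 stood above the other pigs of its group. The difference was 0.52 (SE 0.16, 1.44-fold), with an unadjusted p of 0.00353 and a limma adjusted p of 0.700. Without CT-GE-RES 1 it was 0.34. UBE2T probe set 1 measured 7.12, 6.84, 7.11 and 6.57 in CT-GE-RES pigs, against 6.34, 6.30, 6.71 and 6.85 in CT pigs. These groups overlapped, and the difference was 0.36 (SE 0.17).

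Of an E2 pair that builds ubiquitin chains used in DNA repair, UBE2N is the active partner and UBE2V2 a variant without the active-site cysteine. UBE2V2 measured 9.59, 9.39, 9.59 and 9.38 in CT-GE-RES pigs, against 9.42, 9.24, 9.13 and 8.68 in CT pigs. The difference was 0.37 (SE 0.14, limma adjusted p = 0.700), and CT 4 was the lowest of all. UBE2N measured 10.37, 10.04, 10.37 and 10.06 in CT-GE-RES pigs, against 10.11, 9.95, 9.73 and 9.80 in CT pigs, a difference of 0.31 (SE 0.13). The groups overlapped for both genes. Without CT 4 the UBE2V2 difference was 0.21, and with the 3′/5′ ratio as a covariate it was 0.23.

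UBE2J2, an E2 of the endoplasmic reticulum that acts on misfolded proteins, measured 8.52, 8.42, 8.54 and 8.49 in CT-GE-RES pigs, against 8.41, 8.21, 8.15 and 8.35 in CT pigs. The groups did not overlap, and the difference was 0.21 (SE 0.09). UBE2E2 went the other way. It measured 6.52, 6.57, 6.89 and 6.91 in CT-GE-RES pigs, against 7.15, 7.17, 7.00 and 6.97 in CT pigs. The groups did not overlap, the difference was −0.35 (SE 0.15), and the limma adjusted p was 0.700 for each of these E2 genes. UBE2J2 and UBE2N were picked out after their values were seen.

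Over all members, CT-GE-RES and CT did not overlap for 6 of 72 probe sets, beside 4.03% of all probe sets tested. On the higher side these were UBE2T probe set 2, UBE2J2, USP4 probe set 2, UCHL5 probe set 1 and USP10 probe set 1. UBE2E2 was on the lower side. Groups of 4 against 4 pigs that do not overlap always have an exact permutation p of 0.0286, the smallest possible. That p therefore adds nothing to the lack of overlap. For the other tested probe sets of UBE2T, USP4, UCHL5 and USP10 the groups overlapped. In the same comparison the T cell markers were higher for 9 of 9 genes, and the mean of the list, centred over the arrays, was 0.08 to 0.43 in CT-GE-RES pigs and −1.11 to 0.08 in CT pigs, with CT 4 the lowest. The 4 erythroid markers measured had means of −1.38 to 0.21 in CT-GE-RES pigs and −0.69 to 1.84 in CT pigs, with CT 4 the highest. Neutrophil markers were lower for 4 of 5 genes (median −0.90), with list means of −0.52 to 0.29 in CT-GE-RES pigs and −0.01 to 1.29 in CT pigs. Monocyte markers were lower for 8 of 11 (median −0.25), with list means of −0.53 to 0.78 in CT-GE-RES pigs and −0.16 to 0.75 in CT pigs. The part of these markers in the member differences was not tested.

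**Figure D2:**
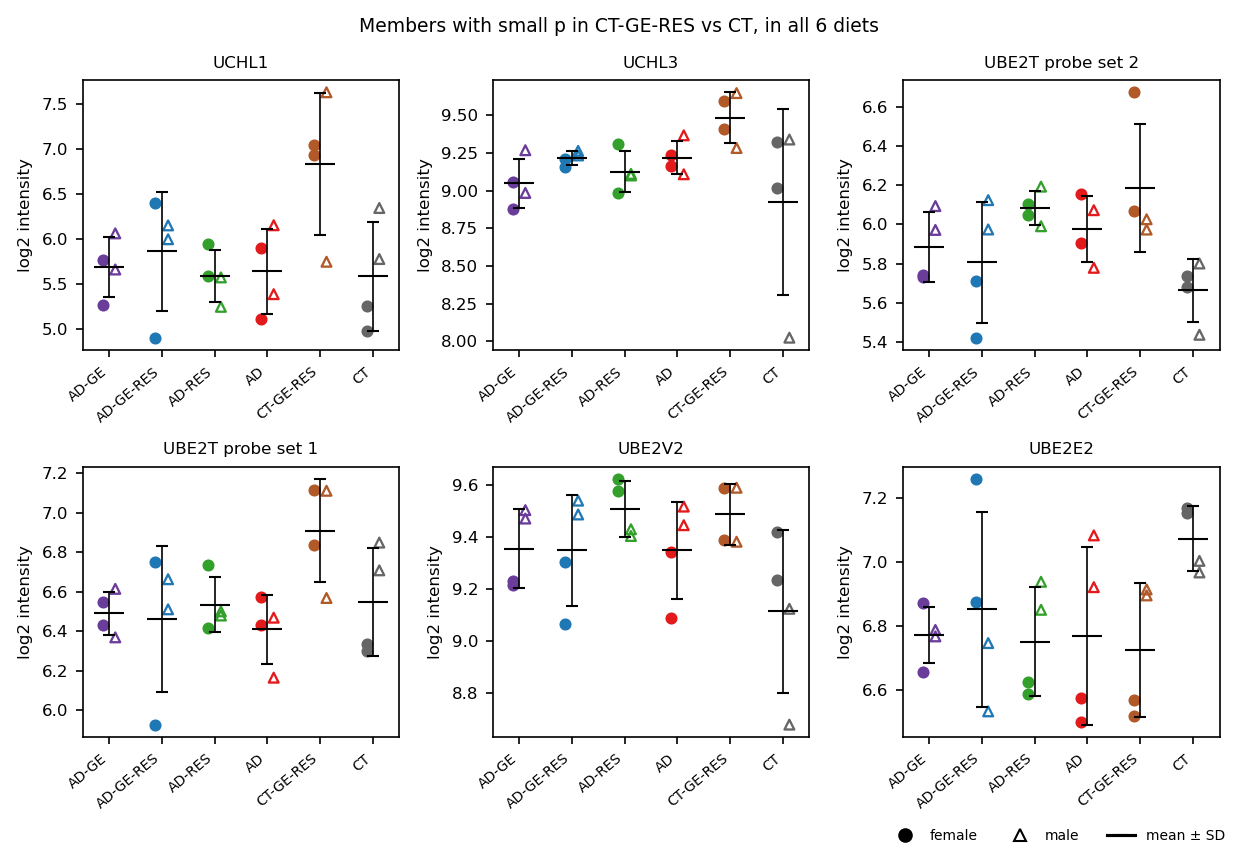
Log2 intensity of 6 member probe sets in the 6 diet groups, with filled circles for females, open triangles for males, and the mean ± SD of 4 pigs. UCHL1 measured 6.93 to 7.63 in 3 of 4 CT-GE-RES pigs and 6.40 or less in every other pig, and UCHL3 and UBE2V2 have their lowest value in CT 4.

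In AD against CT, UBE2D4 was the E2 probe set with the smallest p. UBE2D4, of the UBE2D family that serves many ligases, measured 4.61, 4.89, 5.24 and 4.62 in AD pigs, against 4.64, 4.39, 4.35 and 4.15 in CT pigs (probe set 3). The groups overlapped, and the difference was 0.46 (SE 0.18, limma adjusted p = 0.757). With the 3′/5′ ratio as a covariate it was 0.24 (SE 0.13). UBE2W, which puts ubiquitin on the amino end of proteins, averaged 6.18 ± 0.49 in AD and 5.68 ± 0.56 in CT (probe set 2, SD, n = 4 each). UBE2E2 averaged 6.77 ± 0.28 in AD and 7.07 ± 0.10 in CT. Neither difference, 0.51 for UBE2W and −0.30 for UBE2E2, had an unadjusted p under 0.05. The UBE2W difference was 0.15 with the 3′/5′ ratio as a covariate and 0.33 with array weights. It was 0.27 without CT 4, 0.33 without CT 3 and 0.78 without CT 1. These values are those of probe set 2. UBE2W probe set 1 went the other way, with a lower mean in AD than in CT and groups that overlapped. The Pearson r of the UBE2W pair over the 24 arrays was −0.05. For AD against CT, 0 of 72 members had groups that did not overlap, beside 2.74% of all probe sets.

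Against AD, the E2 genes of the supplemented groups also gave no call. UBE2A, an E2 that acts in DNA damage tolerance, measured 8.99, 9.02, 9.01 and 8.96 in AD-GE pigs, against 9.07, 9.27, 9.30 and 9.06 in AD pigs (probe set 1). It was the 1 member of 72 whose groups did not overlap in AD-GE against AD, beside 4.72% of all probe sets, and its difference was −0.18 (SE 0.11, limma adjusted p = 0.856). UBE2D3, of the same family as UBE2D4, measured 9.56, 9.64, 9.56 and 9.58 in AD-RES pigs, against 9.67, 9.65, 10.02 and 9.77 in AD pigs. It was the 1 member whose groups did not overlap in AD-RES against AD, beside 2.81% of all probe sets, with a difference of −0.19 (SE 0.11, limma adjusted p = 0.980). In AD-GE-RES against AD there were 0 such members, beside 1.26% of all probe sets. The E2 with the smallest p there was UBE2D4 (probe set 3). It measured 4.17, 4.25, 4.70 and 4.90 in AD-GE-RES pigs, against 4.61, 4.89, 5.24 and 4.62 in AD pigs. The difference was −0.33 (SE 0.18, limma adjusted p = 1.000). UBE2D4 probe set 2 was also lower in mean, 4.97 against 5.51, whereas probe set 1 was higher, 6.95 against 6.80. Without AD 3 the UBE2D3 difference was −0.11 and that of UBE2D4 probe set 3 −0.20. With array weights the difference of UBE2D4 probe set 3 was −0.17.

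Beside these values, monocyte markers were mostly lower in each supplemented group and interferon response genes in AD-GE and AD-GE-RES, though limma called 0 genes of either list. Of all 17999 probe sets tested, 8740 were lower in AD-GE, 8570 in AD-GE-RES and 9105 in AD-RES, each against AD. Monocyte markers were lower for 11 of 11 genes in AD-GE against AD (median −0.77), 11 of 11 in AD-GE-RES against AD (median −0.39) and 10 of 11 in AD-RES against AD (median −0.54). The centred mean of that list was −0.74 to −0.12 in AD-GE pigs, −0.39 to 0.69 in AD-GE-RES pigs and −1.06 to 0.45 in AD-RES pigs, against 0.19 to 0.61 in AD pigs. CD14, a defining monocyte marker, had a mean log2 intensity of 6.05 over the arrays. Interferon response genes were lower for 21 of 23 in AD-GE against AD (median −0.69, 13 at an unadjusted p under 0.05), 20 of 23 in AD-GE-RES against AD (median −0.45, 2) and 13 of 23 in AD-RES against AD (median −0.07, 0). Neutrophil markers were lower for 4 of 5, 5 of 5 and 5 of 5 genes in the same order of comparisons. The part of these lists in the member differences was not tested.

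UBE2H, the E2 partner of the CTLH ligase, was the 1 member with an unadjusted p under 0.05 in AD-RES against AD. Probe set 2 measured 9.97, 9.37, 10.74 and 10.94 in AD-RES pigs, against 9.96, 9.66, 9.44 and 9.86 in AD pigs. Both AD-RES males were above every AD pig and 1 AD-RES female was below every AD pig. The difference was 0.52 (SE 0.25, limma adjusted p = 0.980), and it was 0.33 without AD-RES 4. UBE2B, a close relative of UBE2A, averaged 10.38 ± 0.14 in AD-RES and 10.17 ± 0.05 in AD (SD, n = 4 each), a difference of 0.20 (SE 0.11).

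Some E2 genes varied widely between pigs of 1 diet. UBE2O, a large enzyme that works as E2 and E3 at once and is known from mouse to clear proteins from maturing red cells, ranged from 9.14 to 11.50 over the 24 arrays (probe set 2). It measured 9.46, 9.24, 11.40 and 11.44 in AD-RES pigs, against 10.65, 9.63, 9.14 and 9.97 in AD pigs. The other high array was CT 4 at 11.50. UBE2O and UBE2H were set against the mean of 4 erythroid markers (the globins HBB and HBE1, ALAS2, and AHSP, which stabilises alpha globin). Relations had been planned only for lists of at least 5 tested genes. The relations of both genes were added after it was seen that this list was short.

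Over the 24 arrays UBE2O probe set 2 followed the erythroid markers with Pearson r = 0.940 and Spearman rho = 0.943, each with a permutation p of 1e-05, the smallest that 100000 permutations give. Adjusted over the 7 relations computed, the permutation p was 1.75e-05 for r and 2.33e-05 for rho. The r was 0.904 without the 2 arrays farthest from the median of the list, and 0.939 on deviations from diet means. Of 17995 tested probe sets outside the list, 9 (0.05%) had an r at least as high. UBE2H probe set 2 had r = 0.834 and rho = 0.818 with the same markers (adjusted permutation p = 1.75e-05 and 2.33e-05), 0.759 without the 2 farthest arrays and 0.833 within diets, and 0.267% of probe sets had an r as high.

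The other probe sets of these genes did not repeat the relation to the same degree. UBE2O probe set 1 had r = 0.494 and rho = 0.419 with the erythroid markers (adjusted permutation p = 0.0195 and 0.0496), and 0.415 without the 2 farthest arrays. UBE2H probe set 1 had r = −0.436 and rho = −0.455 (adjusted permutation p = 0.0391 and 0.0371), and −0.430 without the 2 farthest arrays. The UBE2H difference in AD-RES against AD stood beside erythroid list means of −0.94 to 1.47 in AD-RES pigs and −0.80 to 0.79 in AD pigs, with 3 of 4 markers higher in AD-RES. The part of these markers in that difference was not tested.

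UBE2C and UBE2T were set against 18 cell cycle genes. UBE2C, the E2 of the anaphase-promoting complex that drives cells out of mitosis, had the largest SD of any member, 0.72, and ranged from 6.53 in AD-RES 2 to 9.93 in CT 4 (probe set 2). Its r with the cell cycle mean was 0.818 and its rho 0.793 over 24 arrays (adjusted permutation p = 1.75e-05 and 3.5e-05), 0.767 without the 2 farthest arrays and 0.873 within diets. UBE2T probe set 1 had r = 0.861 and rho = 0.846 (adjusted permutation p = 1.75e-05 and 2.33e-05), 0.813 without the 2 farthest arrays and 0.868 within diets. As many as 0.578% of probe sets outside the list had an r as high as that of UBE2C, and 0.395% one as high as that of UBE2T. UBE2T probe set 2, the probe set with non-overlapping groups in CT-GE-RES against CT, had r = 0.02 and rho = −0.08 (adjusted permutation p = 0.937 and 0.708).

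**Figure D3:**
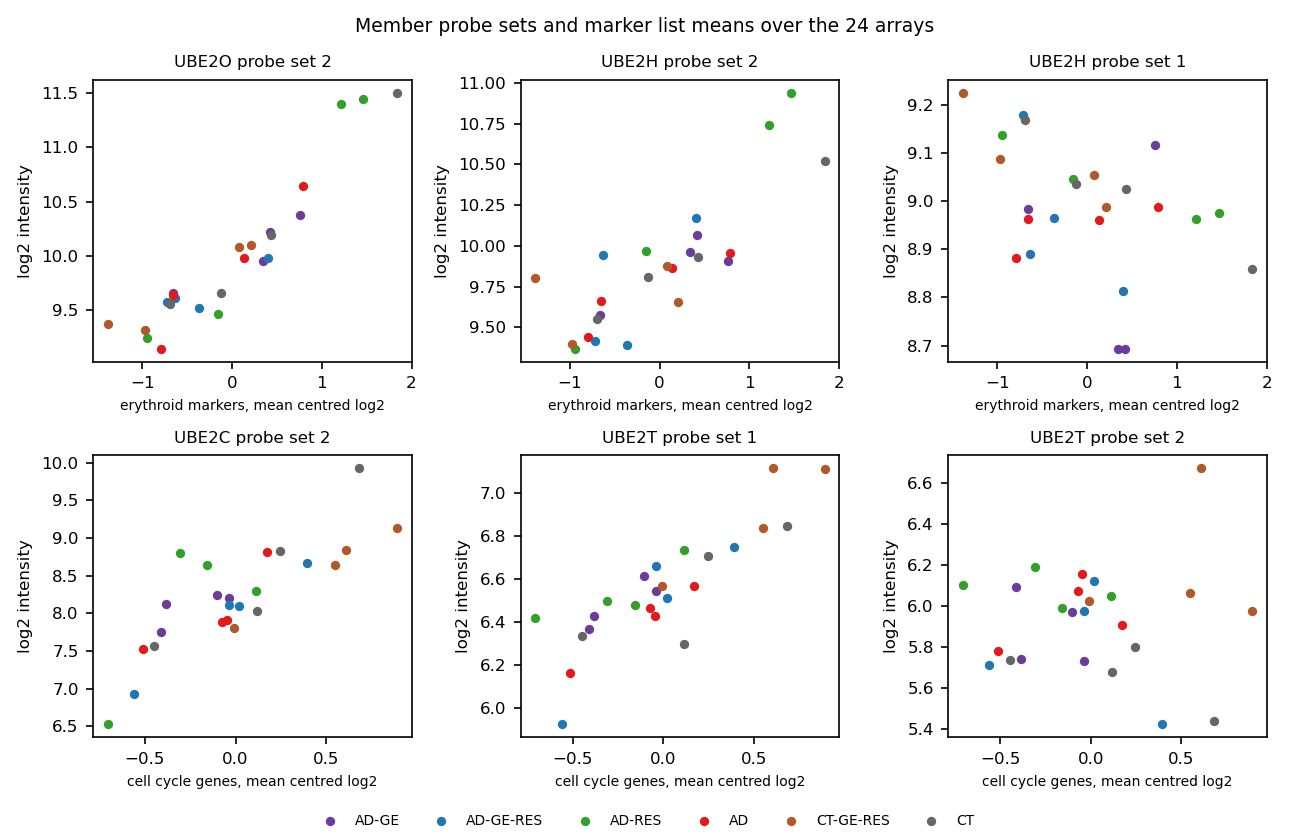
Log2 intensity of 6 E2 probe sets (y axes) against the mean of 4 erythroid markers (top) or 18 cell cycle genes (bottom), each gene centred over the arrays, with 1 point for each of 24 arrays coloured by diet. UBE2O probe set 2 has r = 0.940, whereas UBE2H probe set 1 and UBE2T probe set 2, at the right, have r = −0.436 and 0.02.

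Of the members tested, 13 moved with the 3′/5′ ratio of the arrays. In a fit with diet, sex and the ratio, chosen after the data were seen, these 13 of 72 had a limma adjusted p under 0.05 for the ratio, beside 11.5% of all probe sets. All 13 fell as the ratio rose, beside 8.29% of all probe sets that fell and 3.24% that rose. They were 10 E2 probe sets, 2 of UBA3 and 1 of USP7, a deubiquitinase that stabilises MDM2. UBE2D4 probe set 2 fell by 0.59 (SE 0.05) for each unit of the log2 ratio, with a limma adjusted p of 6.07e-08. UBE2M, the E2 for NEDD8, fell by 0.57 (SE 0.06, limma adjusted p = 2.17e-06), and UBE2A probe set 2 fell by 0.45 (SE 0.06, limma adjusted p = 2.48e-05).

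UBE2M shows the spread that went with it. In CT pigs, whose ratios were 1.64, 3.33, 3.24 and 4.39, UBE2M measured 8.03, 6.87, 6.57 and 6.08. In CT-GE-RES pigs the ratios were 1.50, 2.69, 3.21 and 1.40, and UBE2M measured 7.73, 6.81, 6.80 and 8.17. Some other probe sets of the same genes were not called for the ratio. The slope of UBE2D4 probe set 1 was −0.12 (SE 0.05, limma adjusted p = 0.164) and that of UBE2A probe set 1 was 0.08 (SE 0.04, limma adjusted p = 0.223). UBE2T probe set 2, UBE2V2, UBE2D4 probe set 3 and UBE2W probe set 2, all named above for their diet differences, were among the 13. So were UBA3 probe sets 2 and 5, named above for differences of 0.36, with slopes of −0.33 (SE 0.06) and −0.22 (SE 0.05). With the ratio as a covariate the UBE2T difference in CT-GE-RES against CT was 0.35 (SE 0.12).

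**Figure D4:**
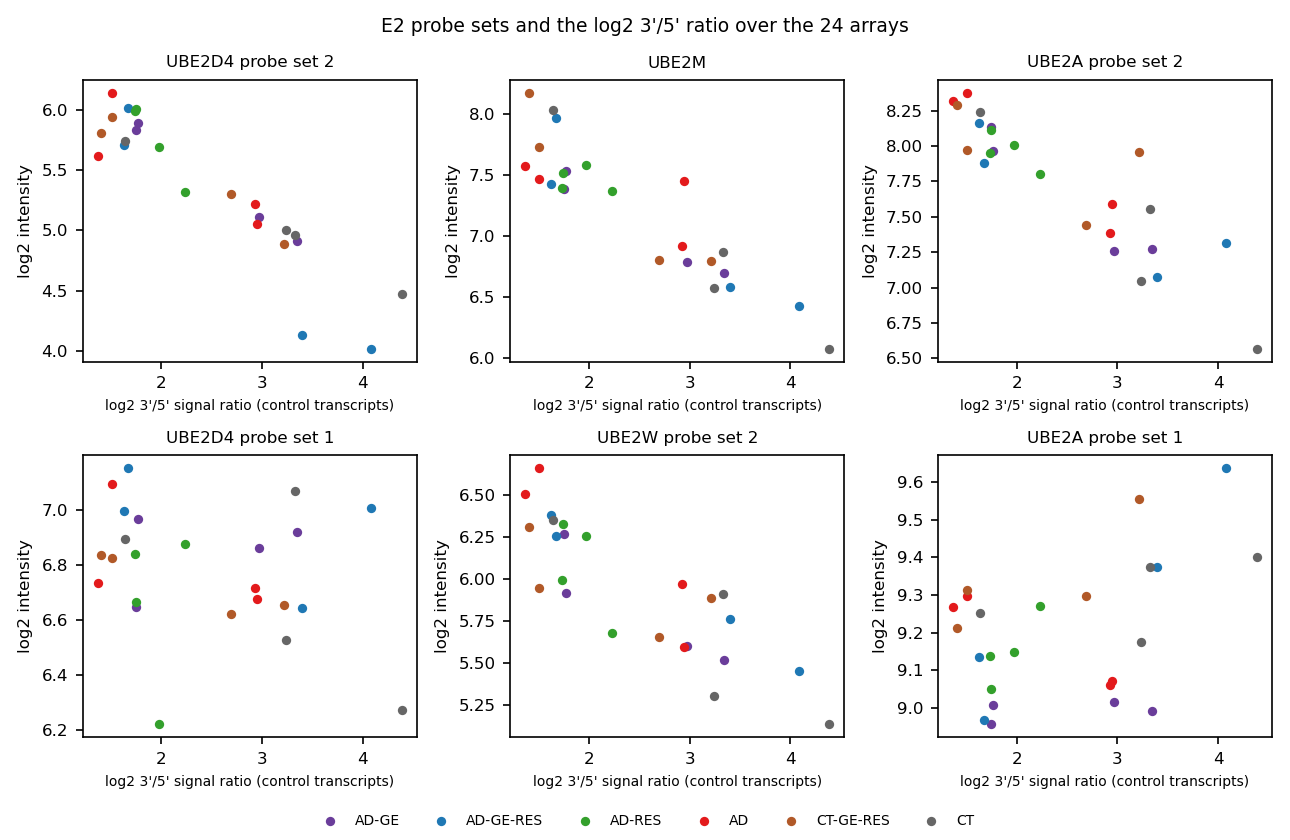
Log2 intensity of 6 E2 probe sets (y axes) against the log2 3′/5′ signal ratio of the control transcripts (x axes) on the 24 arrays, coloured by diet. UBE2D4 probe set 2, UBE2M, UBE2A probe set 2 and UBE2W probe set 2 fall across the range of 1.37 to 4.39. UBE2D4 probe set 1 and UBE2A probe set 1 had slopes of −0.12 and 0.08 that were not called.

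Probe sets of 1 gene often did not vary together. Among 19 genes with several tested probe sets there were 41 pairs, whose Pearson r over the 24 arrays had a median of 0.238 and ranged from −0.36 for UBE2H to 0.952 for UBE2Q1. The r exceeded 0.5 in 6 pairs and was below 0 in 16, and 5 pairs had an adjusted permutation p under 0.05. After UBE2Q1 the highest were OTUD5 at 0.812 and UBE2D4 at 0.791 for probe set 2 with probe set 3. UBE2A was at −0.18 and UBE2V1 as low as −0.34. A value given for such a gene is therefore that of the probe set named.

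The E3 genes were UBE3A, the ligase lost in Angelman syndrome in humans, and UBE3D. UBE3A measured 9.30, 9.27, 9.57 and 9.44 in CT-GE-RES pigs, against 9.39, 9.50, 9.20 and 8.88 in CT pigs, and the groups overlapped with a difference of 0.15. Over the 5 comparisons its differences ran from −0.17 (AD-GE against AD) to 0.15. UBE3D probe set 2 averaged 4.53 ± 0.30 in CT-GE-RES and 4.71 ± 0.33 in CT (SD, n = 4 each), a difference of −0.18 (SE 0.16, limma adjusted p = 0.771). It was −0.05 without CT-GE-RES 3, −0.06 without CT 4, −0.30 without CT-GE-RES 1 and −0.32 without CT 3. With the 3′/5′ ratio as a covariate it was −0.28, and with array weights −0.11. UBE3D probe set 1 was higher in mean in the same comparison. It measured 4.85, 4.73, 5.33 and 5.23 in CT-GE-RES pigs, against 4.62, 5.45, 4.90 and 4.62 in CT pigs.

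Of the deubiquitinases, UCHL1 had the largest difference of any member. UCHL1, a ubiquitin hydrolase known mainly from neurons, measured 6.93, 7.04, 7.63 and 5.75 in CT-GE-RES pigs, against 5.25, 4.98, 5.78 and 6.35 in CT pigs. Of the CT-GE-RES pigs 3 were above every CT pig, and CT-GE-RES 4 was within the CT range. The difference was 1.25 (SE 0.36), or 2.37-fold with an interval on the log2 scale of 0.50 to 2.00, an unadjusted p of 0.00240 and a limma adjusted p of 0.700. UCHL1 also had the smallest F p over the diets, 0.0166 unadjusted and 0.452 adjusted by limma. Its means were 5.87 in AD-GE-RES, 5.69 in AD-GE, 5.59 in AD-RES, 5.64 in AD, 6.84 in CT-GE-RES and 5.59 in CT. Leaving out single arrays gave differences of 1.01 to 1.67.

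UCHL3, a relative of UCHL1 that also acts on NEDD8, measured 9.60, 9.41, 9.65 and 9.28 in CT-GE-RES pigs, against 9.01, 9.32, 9.34 and 8.02 in CT pigs. The difference was 0.56 (SE 0.19, 1.47-fold, limma adjusted p = 0.700), and the groups overlapped. CT 4 was the lowest of all arrays, and without it the difference was 0.25 (SE 0.12). With array weights it was 0.31. UCHL5, which sits on the proteasome, measured 9.79, 9.55, 9.69 and 9.66 in CT-GE-RES pigs, against 9.54, 9.53, 9.19 and 9.49 in CT pigs (probe set 1). Those groups did not overlap, and the difference was 0.23 (SE 0.14). All 3 UCHL genes were thus higher in mean, by 0.11 to 1.25 over 4 probe sets, and none passed the adjusted test.

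In AD against CT, 3 of the 4 members at an unadjusted p under 0.05 were deubiquitinases, and all 3 were lower. Of all probe sets 6.38% stood at that p, and 3.13% were lower there. The deubiquitinases as a set did not shift: of 25 probe sets 12 were higher and 13 lower in AD, with a median of −0.001. USP8, which acts on receptors at endosomes, measured 7.51, 7.56, 7.12 and 6.74 in AD pigs, against 8.01, 7.50, 7.68 and 7.84 in CT pigs. The difference was −0.52 (SE 0.18, limma adjusted p = 0.757), and the groups overlapped through the females. USP28, which acts in the DNA damage response and stabilises MYC, measured 7.78, 7.78, 7.33 and 6.87 in AD pigs, against 7.81, 7.72, 8.32 and 7.86 in CT pigs. Its difference was −0.49 (SE 0.17, limma adjusted p = 0.757), and both AD males were below every CT pig. Without CT 3 the USP28 difference was −0.31 and without AD 4 it was −0.32. OTUD5, known in humans for restraining interferon signalling, measured 9.23, 8.83, 8.83 and 8.79 in AD pigs, against 9.10, 9.24, 9.21 and 9.54 in CT pigs (probe set 2), a difference of −0.36 (SE 0.13, limma adjusted p = 0.757). AD 1 lay within the CT range and the other AD pigs below it. Beside these values, platelet markers were lower in AD for 6 of 7 genes (median −0.77) and cell cycle genes for 15 of 18 (median −0.37). T cell markers were higher for 8 of 9 (median 0.31) and monocyte markers for 6 of 11 (median 0.03). Limma called 0 genes of these lists, and 8923 of all 17999 probe sets were lower. The part of these lists in the deubiquitinase differences was not tested.

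In the supplemented atherogenic groups OTUD5 probe set 2 measured 9.20, 9.36, 9.07 and 9.06 in AD-GE pigs and 8.87, 9.50, 9.21 and 9.04 in AD-GE-RES pigs. Against AD the differences were 0.25 (SE 0.13, limma adjusted p = 0.820) and 0.24 (SE 0.13, limma adjusted p = 1.000). Without AD-GE-RES 2 the difference in AD-GE-RES was 0.13. These comparisons and AD against CT share the AD pigs. USP16, which removes ubiquitin from histone H2A, averaged 8.62 ± 0.38 in AD-GE-RES and 8.21 ± 0.36 in AD (probe set 3, SD, n = 4 each). The difference was 0.40 (SE 0.19, limma adjusted p = 1.000). It was 0.25 without AD-GE-RES 1 and 0.26 with array weights. USP16 probe set 2 differed less, with 8.80, 8.65, 8.69 and 8.38 in AD-GE-RES pigs, against 8.51, 8.33, 8.43 and 8.63 in AD pigs. USP10, which acts on p53, averaged 6.44 ± 0.28 in AD-GE and 6.04 ± 0.36 in AD (probe set 2), a difference of 0.40 (SE 0.27). USP10 probe set 1 hardly differed in mean, with 9.46, 9.53, 9.32 and 9.49 in AD-GE pigs, against 9.58, 9.48, 9.50 and 9.20 in AD pigs. USP4 had 4 probe sets, and in AD-GE against AD they differed by −0.26 to 0.28, with both extremes from the pair of probe sets 4 and 3.

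Between the sexes, 0 of 72 members were called by limma for females against males, beside 0.267% of all probe sets. At an unadjusted p under 0.05 stood 6 members, beside 10.3% of all probe sets. UBE2K, an E2 that extends the chains read by the proteasome, had the smallest p, with a female minus male difference of −0.17 (SE 0.06, limma adjusted p = 0.347). In fits of 12 diet and sex groups, 0 members were called for the interaction of sex with any of the 5 comparisons. Of all probe sets 0% were called for it in AD-GE and in AD-RES against AD, 0.0111% in AD-GE-RES against AD, 0.117% in AD against CT and 0.289% in CT-GE-RES against CT. At an unadjusted p under 0.05 were 4 of 72 in AD-GE against AD (4.82% of all probe sets), 13 in AD-GE-RES against AD (13.3%), 11 in AD-RES against AD (12.2%), 14 in AD against CT (14.9%) and 17 in CT-GE-RES against CT (15%).

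The contrast of AD with CT in males was taken up after the values were seen, because both AD males were low for USP28. In males USP28 fell, with 7.33 and 6.87 in AD against 8.32 and 7.86 in CT, a difference of −0.99 (SE 0.17) and a limma adjusted p of 0.0151. It was the 1 member of 72 (1.39%) called in males, near the 1.34% of all probe sets. Among members at an unadjusted p under 0.05 in males, 12 were higher in AD and 5 lower. That split was not compared with all probe sets. In females USP28 measured 7.78 and 7.78 in AD, against 7.81 and 7.72 in CT. The test of the difference between the sexes gave 1.01 (SE 0.24, limma adjusted p = 0.103) and was not called. Adding the 3′/5′ ratio to the fit gave a limma adjusted p of 0.0487. The call in males was lost without AD 4 (−0.76, limma adjusted p = 0.0644) and with array weights (limma adjusted p = 0.114).

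**Figure D5:**
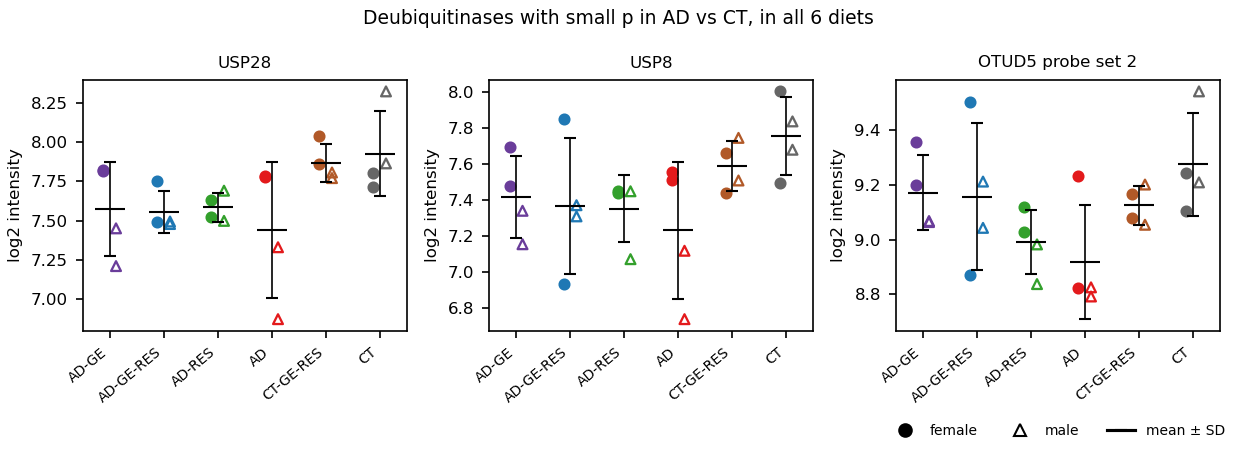
Log2 intensity of USP28, USP8 and OTUD5 in the 6 diet groups, with filled circles for females, open triangles for males, and the mean ± SD of 4 pigs. For USP28 and USP8 the 2 AD males, at 7.33 and 6.87 and at 7.12 and 6.74, are the lowest of their group, and for USP28 the AD females, at 7.78, lie beside the CT females.

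UBE2O probe set 2 had the smallest interaction p in AD-RES against AD, with a female minus male difference of −2.65 (SE 0.54, limma adjusted p = 0.0895). It was called with the 3′/5′ ratio as a covariate (limma adjusted p = 0.0332) and with array weights (limma adjusted p = 0.0386). Both AD-RES females, at 9.46 and 9.24, were below both AD females, at 10.65 and 9.63, while both AD-RES males, at 11.40 and 11.44, were above both AD males, at 9.14 and 9.97. Erythroid list means on the same arrays were −0.15 and −0.94 in AD-RES females, against 0.79 and −0.66 in AD females, and 1.22 and 1.47 in AD-RES males, against −0.80 and 0.13 in AD males. The part of these markers in the UBE2O values was not tested.

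Other genes of the pathway were read from lists of modifiers, further conjugation genes, RING, HECT and RBR ligases, cullin ligases, further deubiquitinases, ubiquitin receptors and proteasome subunits. The further conjugation genes act for SUMO, NEDD8 and other modifiers, and some act for ubiquitin itself. Limma called 0 genes of these lists in any of the 5 comparisons. In CT-GE-RES against CT, 27 of 27 proteasome genes were higher, with a median of 0.23 and 11 at an unadjusted p under 0.05, beside 52.3% of all probe sets higher and 3.87% higher at that p. The centred mean of the proteasome list was 0.10 to 0.27 in CT-GE-RES pigs and −0.25 to 0.05 in CT pigs, with CT 4 the lowest of all arrays. Proteasome genes were higher for 5 of 27 in AD-GE against AD (median −0.09), 13 of 27 in AD-GE-RES against AD (median −0.003), 18 of 27 in AD-RES against AD (median 0.03) and 21 of 27 in AD against CT (median 0.04). In CT-GE-RES against CT, cullin ligase genes were higher for 27 of 30 (median 0.12, 4 at that p) and further conjugation genes for 12 of 14 (median 0.10, 1). Further deubiquitinases were higher for 12 of 17 (median 0.11, 4) and ubiquitin receptors for 9 of 11 (median 0.13, 1). RING, HECT and RBR ligases were higher for 17 of 25 (median 0.03, 1). Ubiquitin and related modifiers were higher for 5 of 11 genes, with a median of −0.02 and 0 at that p. Of the cell cycle genes 16 of 18 were higher (median 0.36), and of the interferon response genes 7 of 23 (median −0.30).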

How the data were processed

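RMA and GCOS are named in, and so credited per, the submitters' processing notes; versions, roles and settings are not given in the sources used here. What the authors deposited is a linear intensity per array for every probe set, already summarised from its probes. These values were taken to log2 with no further normalization. After removal of 124 control probe sets, 23999 remained, of which the 25% with the lowest mean were dropped, so that 17999 were tested (8575 with 1 symbol, 133 with several and 9291 with none).

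Symbols came from the platform annotation. Of the 76 member probe sets 74 matched a RefSeq symbol, and those of UBE2D3 and USP28 did not. Separately, 2 UCHL5 probe sets list that symbol 2 times and were kept. A further 3 USP probe sets that list 2 different genes were left out. Sequences and genome positions were not used here.

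With limma 3.58.1 (R 4.3.3) a model holding 6 diet means plus sex was fitted over the 24 arrays (17 residual and 3.60 prior degrees of freedom), two-sided, with Benjamini-Hochberg adjustment over all probe sets tested and a threshold of 0.05. A member is called where its adjusted p is below it. Interactions and contrasts within a sex came from a fit of 12 diet and sex groups (12 residual and 3.93 prior degrees of freedom), 2 pigs against 2. The labels number each pig, so p-values measure spread between animals. Single values of 4 against 4 pigs were compared by exact permutation, with p no lower than 0.0286. The fit was tested on simulated data.

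The members, the pathway and marker lists and the tests were chosen with earlier results of these data known. Named were, for each comparison and direction, 4 member probe sets with the smallest p (1 for each gene), 6 with the smallest F p, 3 for each direction between the sexes, 6 with the largest SD, and the members of the relations. UBA2, UBE3A, UBE2J2, UBE2N, UCHL5, USP7 and further probe sets of named genes were picked out after their values were seen. Relations of UBE2L6, UBA7 and UBE2S were not analysed here. Alternatives changed the filter, normalization, sex term, arrays in the fit, 3′/5′ ratio, array weights and variance prior, and left out each array in turn.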

Additional observations from a re-analysis of the deposited data

Results flagged for a closer look

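Single pigs were set against the other 3 of their group for the 40 named probe sets in 6 groups, 240 sets of 4 values, by Dixon's ratio of gap to range at the 95% level. Of these, 13 held a value that stood apart; chance alone flags about 1 in 20 sets. The values are log2 intensities.

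Of the E1 and E2 genes, UBA3 probe set 3 stood at 3.81 in AD 4 against 3.43 to 3.46 in the other AD pigs. UBE2T probe set 2 was 6.67 in CT-GE-RES 1, above 5.97 to 6.07. UBE2V1 probe set 2 was 6.64 in CT-GE-RES 4, above 5.56 to 5.67. UBE2D2 probe set 2 was 11.54 in AD-RES 1, below 11.62 to 11.63. UBE2Q1 probe set 1 was 11.73 in AD 4, above 11.51 to 11.52. UBE2K was 8.25 in CT 4, below 8.46 to 8.50, UBE2B was 10.58 in CT 1, above 10.15 to 10.22, and UBE2F was 7.22 in CT 3, below 7.49 to 7.54.

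Of the deubiquitinases, USP8 was 7.07 in AD-RES 4, below 7.44 to 7.45. USP28 was 7.75 in AD-GE-RES 2, above 7.48 to 7.49. OTUD5 probe set 2 was 9.23 in AD 1, above 8.79 to 8.83. USP4 probe set 3 was 4.87 in AD-GE-RES 1, below 5.48 to 5.56, and 5.64 in CT-GE-RES 3, above 5.21 to 5.27.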

How the results depend on the processing

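No paired analysis was possible because the labels give no replicate numbers that groups share. The 46 named differences kept their direction under all 1518 alternative values, and 1517 stayed on the same side of the threshold; UBE2K for females against males was called with array weights (−0.24, adjusted p = 0.0231). Probe set calls stayed at 0 in every diet comparison and the F test under every alternative except array weights, which called 1 for AD-GE against AD and 92 by F. For females against males array weights called 806 probe sets and 2 members (UBE2K and OTUD5), and leaving out single arrays gave 32 to 242 probe sets (without AD-GE 3 and AD-GE-RES 1) and 0 members. The cause was not tested.

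Counts of interactions with sex moved by over 1.5 times. For AD against CT they numbered 5 probe sets after another quantile normalization, 109 with the 3′/5′ ratio (1 member, USP28) and 0 with array weights, against 21; for AD-GE-RES against AD 1, 0 and 1, against 2; for AD-RES against AD 40 with the ratio and 66 with array weights (1 member each, UBE2O), and 2 with the lower 50% left out or a robust prior, against 0; for CT-GE-RES against CT 85 with the ratio and 16 with array weights, against 52. Leaving out single arrays gave 0 to 961 probe sets and 0 to 4 members for AD against CT, 0 to 1 and 0 for AD-GE against AD, 0 to 888 and 0 to 3 for AD-GE-RES against AD (the highest without AD-GE-RES 2), 0 to 55 and 0 to 1 for AD-RES against AD, and 5 to 1047 and 0 to 4 for CT-GE-RES against CT; the other highest counts came without CT 3, except AD-GE against AD, without AD 3.

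For AD against CT in males array weights called 1 probe set and 0 members, the lower 50% left out gave 2 members (USP28 and UBE2W), and leaving out single arrays gave 18 to 1544 probe sets (without AD 3 and CT 3) and 1 to 8 members (most without CT 3). For the 3′/5′ ratio, leaving out single arrays called 1374 to 2386 probe sets and 11 to 16 members. The relation with the cell cycle was r = 0.0171 for UBE2T probe set 2, and that with erythroid markers was r = −0.436 for UBE2H probe set 1, the reverse of UBE2H probe set 2. Leaving out CT 4 lowered the CT-GE-RES difference of UCHL3 to 0.25 and of UBE2V2 to 0.21.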
